A study of Mus musculus with 4 samples.

Results

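Stimulation through the T cell receptor (TCR) was examined in CD4 T cells of mice labelled as Med23 knockout, by setting the array of cells stimulated for 6 h against the array of unstimulated cells. These are 2 of the 4 arrays of the study. Per the labels, all cells came from lymph nodes of male mice aged 7 weeks. The other 2 arrays hold wildtype cells with and without the same stimulation. How the Med23 gene was deleted, in which cells, how the CD4 cells were selected and which agent engaged the receptor were not stated in those labels. Both arrays compared carry the same knockout label and differ, per the labels, in stimulation. They are called the stimulated array and the unstimulated array in the following. No time is given for the unstimulated cells, so whether they were kept in culture for the same 6 h is unknown. Effects of culture and of stimulation cannot be told apart here.

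CD4 T cells are the helper lymphocytes of adaptive immunity. Engagement of the TCR activates the kinases Lck and Zap70, which lead to calcium and calcineurin signalling, to the Ras and ERK kinase cascade and to NF-kB. Within hours the cell leaves its resting state, transcribes cytokine genes and builds up the machinery for growth that precedes division. Med23 belongs to Mediator, a protein complex that connects transcription factors with RNA polymerase II, and it is known as a docking site of the ERK target Elk1. The comparison asks what the TCR response looks like in cells in which this subunit was targeted.

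Each condition had 1 array on 1 sample, so the differences have no replicate check, no test was possible and no p-value is given. A level is the log2 of a signal divided by the 75th percentile of its array, and differences are stimulated minus unstimulated on that log2 scale. A 2-fold difference, as a rule of size, made a gene higher or lower. Signals below a floor of -5.01 were set to it, and a difference against the floor is given as "at least" or "at most". The 75th percentile of raw signal was 243.7 in the stimulated and 332.6 in the unstimulated array, and 60.2% and 59.5% of their probes lay above the floor. Some probes were printed in 10 spots. The SD of their difference between the arrays from spot to spot was 0.109 for 109 probes brighter than level 1, and 0.459 for 60 probes between the floor and -3. Noise between spots was therefore small against 2-fold for bright genes and larger for dim ones. Spots below the floor were set to it first, which lowers the SD of dim probes. This noise does not include error between labellings or hybridizations, nor the spread between animals or cultures.

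The targeted gene itself was read by 1 probe. Med23 had a level of -2.29 in the stimulated array and -1.66 in the unstimulated array, a difference of -0.63, against -0.75 and -1.59 in the stimulated and unstimulated wildtype arrays. Its level in the unstimulated knockout array was thus close to that of unstimulated wildtype cells, so the unstimulated arrays do not bear out the knockout label. With stimulation it was lower in the knockout array (-2.29) than in the wildtype array (-0.75). The position of the probe relative to the deletion is unknown, so these values may check nothing. The arrays are knockout arrays by their labels alone. Among the other subunits, Med14 (1.54), a backbone of the complex, Med13 (1.36), Med7 (1.21) and Med21 (1.09) were 2-fold higher. The kinase Cdk19 (-1.03) was 2-fold lower. Over all 32 measured Mediator genes, 4 (12.5%) were higher and 1 was lower, with a median difference of 0.33. Of all measured genes 13.5% were higher and 13.8% lower, so higher genes were no more frequent among Mediator genes.

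The labelled cell type was read from its markers. Of 14 T cell markers, all lay above the floor in both arrays. The TCR signalling chain Cd3e had a level of 7.36 in the stimulated array and 7.90 in the unstimulated array. The coreceptor Cd4 was at 1.01 in the stimulated array and 2.36 in the unstimulated array, a difference of -1.34. These are means over probes that were not alike. The Cd4 probe printed in 10 spots was at -2.42 in the stimulated array and -1.67 in the unstimulated array. Its difference of -0.75 was under 2-fold. Of the markers 4 were 2-fold lower and 0 higher (median -0.56). The CD8 coreceptor gene Cd8a was dim, at -4.30 in the stimulated array and -4.20 in the unstimulated array as means over probes. Its probe printed in 10 spots was brighter, at -3.59 in the stimulated array and -3.38 in the unstimulated array. As the RNA came from whole preparations, fewer cells of a type and less RNA of a gene per cell cannot be told apart.

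Markers of other cells tended to be lower in the stimulated array. They were not all dim, as the summed levels of their lists show. Of all measured genes 13.8% were lower, and of the T cell markers 28.6%. The B cell list had 3 of 11 measured genes lower (27.3%) and 0 higher, a share close to that of the T cell markers. The summed level (log2) of the B cell list was 0.39 in the stimulated array and 1.39 in the unstimulated array. Cd79b had the largest difference of the list (-2.10). Pax5, a defining B cell factor, was at the floor in the stimulated array and -4.98 in the unstimulated array. Plasma cell genes were lower in 3 of 5 cases, with a summed level of 1.02 in the stimulated array and 3.17 in the unstimulated array. Jchain, the joining chain of secreted antibodies, differed by -2.71. Myeloid and dendritic cell markers had 6 lower and 0 higher members among 19, with a summed level of 4.67 in the stimulated array and 5.46 in the unstimulated array, and lysozyme Lyz2 was at the floor in the stimulated array and -3.73 in the unstimulated one. Stromal and endothelial markers had 6 lower and 0 higher members among 11, with a summed level of 0.62 in the stimulated array and 1.89 in the unstimulated array. CD8 T cell markers were lower in 2 of 4, with a summed level of 0.42 in the stimulated array and 2.78 in the unstimulated array, the lower members being Cd7 (-2.77) and Klrd1 (-2.55). The part that these cells have in the differences below was not tested.

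Many neutrophil and red cell markers were at the floor in both arrays, but the summed neutrophil level was not below that of every list above. Of 16 neutrophil markers 7 were at the floor in both, and the list's summed level was 1.68 in the stimulated array and 1.37 in the unstimulated array. One measured member was higher, Ngp (at least 2.60), and 2 were lower, Ctsg (at most -1.38) and Mpo (-1.22). S100a9 was at the floor in the stimulated array and -4.11 in the unstimulated one. Of 12 red cell markers 6 were at the floor in both, the list's summed level was -0.08 in the stimulated array and -0.23 in the unstimulated array, and 2 of 6 measured genes were lower, Hba-a2 (-1.72) and Hba-a1 (at most -1.34). In the stimulated wildtype array the summed levels of these lists were 8.29 and 7.33. Natural killer cell markers had 1 of 9 higher, Cd160 (2.28), which activated T cells also express, and 2 lower, with a summed level of 0.50 in the stimulated array and 0.59 in the unstimulated array.

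**Figure D1:**
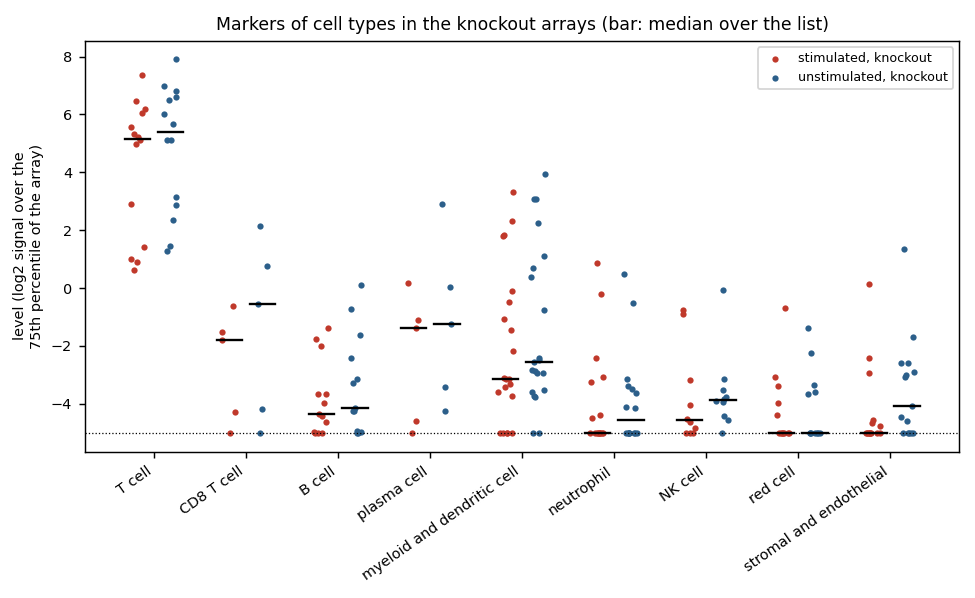
Levels of cell type markers (log2 signal over the array's 75th percentile; each point is a gene, the bar is the list's median) in the stimulated (red) and unstimulated (blue) knockout arrays, with the floor as a dotted line. T cell markers lie above the floor in both arrays, and most neutrophil and red cell markers lie at or near it.

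Over all 14229 measured genes, 1919 (13.5%) were 2-fold higher in the stimulated array and 1963 (13.8%) were 2-fold lower. These shares are the background for the counts of each list below. The median difference was 0.05, with quartiles of -0.54 and 0.56. Large differences leaned to the higher side. A 16-fold difference was found for 60 higher and 22 lower genes, and a 4-fold one for 509 higher and 431 lower genes. Among 2219 genes brighter than level 3 in the brighter array, 23.9% were higher and 12.8% lower, while between the floor and -3 the shares of 3551 genes were 5.41% and 8.03%. Where a called gene had several probes, all of them pointed the same way in 907 of 922 genes.

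**Figure D2:**
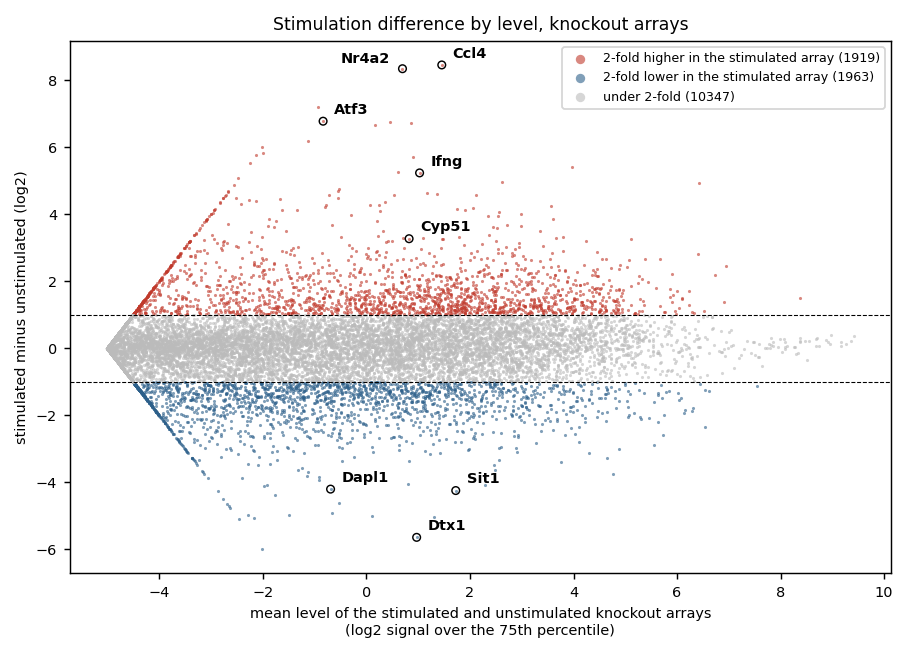
Stimulated minus unstimulated difference (log2) against the mean level of both knockout arrays (log2 signal over the 75th percentile) for every measured gene, with dashed lines at 2-fold. 1919 genes lie above the upper line (red) and 1963 below the lower one (blue), and named genes are circled.

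Transcription factors of the first hours stood far above that background. Of 33 measured members 20 were 2-fold higher and 1 was lower (median 2.18, against 13.5% and 13.8% of all genes). Nr4a2, an orphan nuclear receptor, had a level of 4.87 in the stimulated array and -3.47 in the unstimulated array and was 324-fold higher, a difference of 8.34. Its relative Nr4a1, whose transcription tracks TCR signal strength, was at 8.89 in the stimulated array and 3.96 in the unstimulated array (4.93). The third family member, Nr4a3, was at -0.47 in the stimulated array and the floor in the unstimulated one (at least 4.54). All members of the NR4A family were thus higher.

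Atf3, a stress-induced partner of AP-1 and ATF factors, was at 2.55 in the stimulated array and -4.22 in the unstimulated array and was 109.5-fold higher. Irf4, a factor that lymphocytes raise with signal strength and need for expansion, was at 5.69 in the stimulated array and 1.44 in the unstimulated array (4.25). The zinc finger factors of the EGR family were all higher: Egr4 by at least 5.53, Egr2 by 4.06, Egr1 by 2.60 and Egr3 by 2.18, and so was their corepressor Nab2 (2.69). Within AP-1 the members differed. Fosl1 (at least 4.37), Fosl2 (3.50), Fosb (3.34) and Fos (1.61) were higher, while Jun (-0.27), Jund (0.18), Junb (0.94) and Batf (0.37) were not past 2-fold. Batf3 was the lower member, at -1.40 in the stimulated array and 0.85 in the unstimulated array (-2.25). Myc, which drives growth programmes in activated lymphocytes, was at 5.96 in the stimulated array and 3.28 in the unstimulated array (2.67), against -0.05 for its partner Max.

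The promoters of both NR4A genes are shown because they hold a match to the EGR motif GCGNGGGCG, searched on both strands. Of 26 early factors with a promoter window in the RefSeq table (build GRCm38.p6, 250 bases before to 50 after the start), 8 (30.8%) held it, against 10.8% of the measured genes with a window. The motif was as frequent in lists that were not mostly higher, with 27.6% of naive and quiescence factors, 33.3% of Notch and Wnt genes and 29.7% of chromatin genes, and it lay in 11.9% of all higher and 11.8% of all lower genes. The match, in capitals, begins 74 bases before the Nr4a2 start (chr2:57123954-57124253, minus strand) and 60 bases before the Nr4a1 start (chr15:101266596-101266895, plus strand). A match describes the letters of the window and not a bound site.
Nr4a2: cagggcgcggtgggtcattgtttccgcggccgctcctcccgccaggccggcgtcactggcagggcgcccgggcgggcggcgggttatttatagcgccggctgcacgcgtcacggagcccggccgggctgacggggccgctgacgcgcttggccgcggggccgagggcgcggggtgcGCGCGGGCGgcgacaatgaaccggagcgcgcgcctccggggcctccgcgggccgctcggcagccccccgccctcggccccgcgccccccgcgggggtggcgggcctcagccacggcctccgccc
Nr4a1: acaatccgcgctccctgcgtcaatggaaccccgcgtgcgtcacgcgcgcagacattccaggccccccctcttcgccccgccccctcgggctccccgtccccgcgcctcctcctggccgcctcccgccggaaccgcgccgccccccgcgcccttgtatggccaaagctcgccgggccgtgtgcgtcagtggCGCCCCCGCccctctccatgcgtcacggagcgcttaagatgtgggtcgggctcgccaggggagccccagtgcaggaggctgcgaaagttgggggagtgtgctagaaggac

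NF-kB genes were higher in part. Of 25 NF-kB and NFAT genes 8 were higher and 3 lower (median 0.75). The inhibitor-like regulator Nfkbid (2.81) and the precursor subunits Nfkb2 (2.55) and Nfkb1 (2.32) were all higher. Nfkbia, the classical inhibitor that NF-kB itself induces, differed by 0.65 and was not past the rule. Nfatc1, the NFAT gene known to be induced by TCR signalling, was higher (2.18), and Nfatc3 was lower (-1.57), as was the calcineurin subunit Ppp3ca (-1.06).

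Among factors of helper lineages, 6 of 26 were higher and 2 lower (median 0.19). The type 1 factor Tbx21 was at 3.48 in the stimulated array and -1.14 in the unstimulated array and was 24.6-fold higher. Bcl6, the follicular helper factor, differed by 1.25 and Foxp3, the regulatory T cell factor, by 1.01, both just past 2-fold. Gata3 of type 2 cells (0.25) was not past it. Runx3 (-1.15) and Ascl2 (-1.10) were lower.

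Cytokine genes were higher across helper classes. Of 32 measured cytokines 24 were 2-fold higher and 3 lower (median 2.66). In the authors' normalized values 14 were higher. Those values cover 10993 measured genes in place of 14229, so the 14 need not be out of 32. Ifng, the type 1 cytokine, was at 3.64 in the stimulated array and -1.59 in the unstimulated array and was 37.6-fold higher. Il2, the growth factor of T cells, was at 5.11 in the stimulated array and 0.14 in the unstimulated array (4.97), and Tnf was at 4.52 in the stimulated array and 0.56 in the unstimulated array (3.96). The probe of Tnf was printed in 10 spots, and its difference had an SD of 0.157 over them. Il17a of interleukin-17 producing cells was at 1.97 in the stimulated array and -4.23 in the unstimulated array and was 73.3-fold higher.

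Of the type 2 cytokines, Il4 was at 2.19 in the stimulated array and -0.45 in the unstimulated array (2.64), while Il5 (at least 3.84), Il13 (at least 3.17) and Il9 (at least 3.21) were at the floor without stimulation. Il3 (at least 4.12), Il31 (at least 3.85) and Il6 (at least 3.76) were likewise measured in the stimulated array alone. Lif, a relative of Il6 in signalling, was at 0.92 in the stimulated array and -4.90 in the unstimulated array (5.82). Ligands of the tumour necrosis factor family were higher too, including Tnfsf8 (2.90), Tnfsf14 (2.78), the helper signal Cd40lg (2.78) and Fasl (2.52). Ltb, of the same family, differed by -0.06. The anti-inflammatory Il10 was higher by 2.63 and Tgfb1 by 1.63. Lower members were Il16 (-2.74), a chemoattractant of CD4 cells made from a stored precursor, Tgfb3 (-1.58) and Il24 (at most -1.55).

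The Lif promoter is shown as an example of an AP-1 match (TGANTCA, both strands), which 6 of 27 cytokines with a window held (22.2%), against 7.17% of measured genes. It lay in 5.79% of all higher genes, in 0 of 26 early factors and in 29.4% of interferon-stimulated genes. The match, in capitals, begins 228 bases before the start (chr11:4257318-4257617, plus strand, GRCm38.p6).
Lif: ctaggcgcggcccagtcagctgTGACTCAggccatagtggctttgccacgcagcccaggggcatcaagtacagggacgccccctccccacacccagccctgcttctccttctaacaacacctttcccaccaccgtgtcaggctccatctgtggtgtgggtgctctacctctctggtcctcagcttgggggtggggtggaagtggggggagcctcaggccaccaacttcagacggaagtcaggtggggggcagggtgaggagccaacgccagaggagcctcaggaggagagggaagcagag

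Chemokines included some of the largest differences. Ccl4, an inflammatory chemokine, was at 5.68 in the stimulated array and -2.77 in the unstimulated array and was 351-fold higher. Xcl1, which attracts cross-presenting dendritic cells, was at 4.22 in the stimulated array and -2.50 in the unstimulated array (6.72). Ccl3 was at 0.99 in the stimulated array and the floor in the other (at least 6.00). Ccl1 (4.40), the interferon-inducible Cxcl10 (4.28) and Cxcl1 (at least 3.94) were also higher. Ccl5, a late chemokine of memory and effector cells, went the other way, at 5.23 in the stimulated array and 7.09 in the unstimulated array (-1.86), as did Cxcl16 (-2.25). In all, 8 of 12 measured chemokines were higher and 2 lower (median 2.81). That median depended on how dim genes were treated and ran between 0.71 and 2.82 over the alternative settings. In the authors' values, which cover fewer genes, 4 chemokines were higher, and these need not be out of 12.

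**Figure D3:**
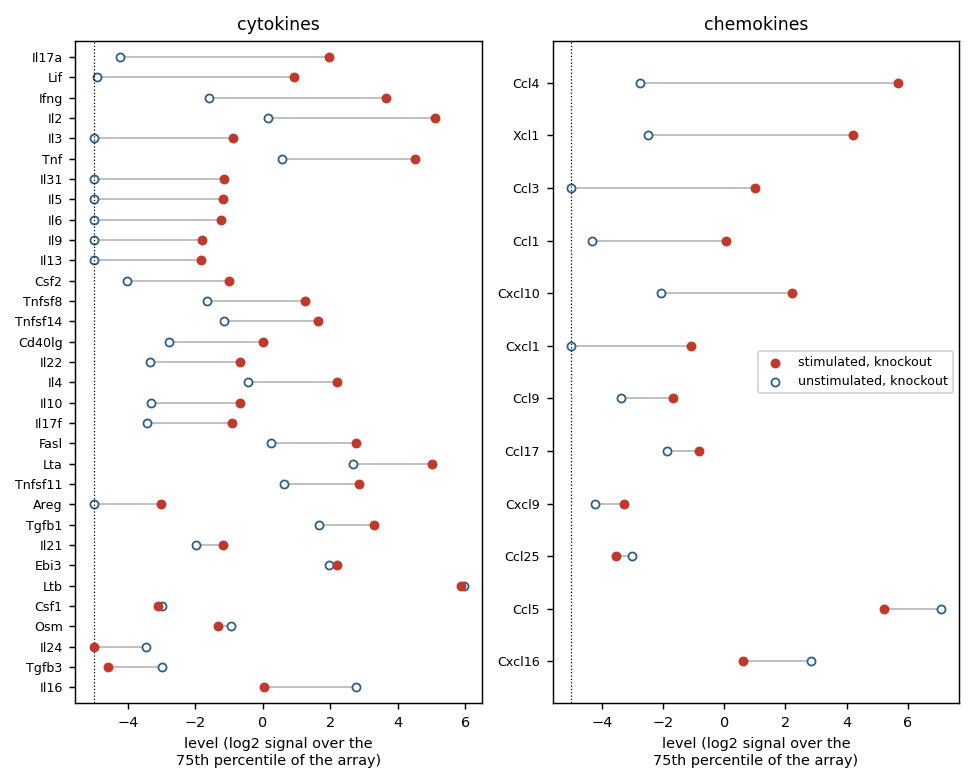
Levels of the measured cytokines (left) and chemokines (right) in the stimulated (filled red) and unstimulated (open blue) knockout arrays, as log2 signal over the array's 75th percentile, ordered by the difference, with the floor as a dotted line. Il17a and Ccl4 head the panels, and Il16, Ccl5 and Cxcl16 lie on the lower side.

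Of 30 homing and adhesion genes 13 were lower and 5 higher (median -0.80). S1pr1, the receptor that lets T cells leave the lymph node, was at 1.81 in the stimulated array and 3.82 in the unstimulated array (-2.01). The lymph node homing receptor Ccr7 differed by -0.76, under 2-fold. Itgb7, the integrin chain of gut homing, was at 4.11 in the stimulated array and 7.00 in the unstimulated array (-2.89), with Ccr2 (at most -3.44), Ccr10 (-2.65) and Cd55 (-2.46) also lower. On the higher side were Cd24a (3.80), Ccr8 (2.99), Gpr183 (2.15), Ccr4 (2.06) and Itgb1 (1.04).

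Costimulatory and inhibitory receptors had 17 higher and 3 lower members among 38 (median 0.90). Cd69, the early activation antigen that holds cells in the node by binding S1pr1, was at 6.39 in the stimulated array and 3.77 in the unstimulated array (2.63). The inhibitory receptor Pdcd1 was at 4.93 in the stimulated array and 1.89 in the unstimulated array (3.04), and its ligands Cd274 (3.02) and Pdcd1lg2 (3.25) were higher beside it. Slamf1 (3.68) and the costimulatory Tnfrsf9 (3.39) led the list. Ctla4 (0.92) and Cd28 (0.47) were not past 2-fold, and Cd200r1 (-2.63), Tnfrsf25 (-1.83) and Cd96 (-1.55) were lower.

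Of 34 cytokine receptors 6 were higher (17.6%) and 7 lower (20.6%), not far from the 13.5% and 13.8% of all measured genes (median -0.28). Il2ra, the inducible chain of the interleukin-2 receptor, was at 4.49 in the stimulated array and 1.86 in the unstimulated array (2.63), and the shared chains Il2rb (0.41) and Il2rg (0.82) were not past the rule. Il12rb1 (2.11), the decoy receptor Il1r2 (2.28) and the kinase Jak2 (1.74) were also higher. Tgfbr3 (-3.03), Csf2rb (-2.23), Il9r (at most -1.68) and Il10rb (-1.33) were lower. Il7r, the survival receptor of resting T cells, differed by -0.97, just under 2-fold.

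The signalling machinery of the receptor was more often lower than higher. Of 40 TCR proximal genes 14 were lower and 8 higher (median -0.56). Sit1, an adaptor that restrains TCR signalling, was at -0.40 in the stimulated array and 3.85 in the unstimulated array and was 19.0-fold lower. Malt1 (1.29) and Bcl10 (1.26), which link the receptor to NF-kB, were higher. The adaptor Grap2 (-1.86) and Sla2 (-1.76) were lower, and Sla, a related adaptor, was higher, at 4.23 in the stimulated array and 1.40 in the unstimulated array (2.83). Of the kinases, Zap70 was higher (1.76), and Lck (-0.81) was not past the rule.

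Feedback regulators had 15 higher and 3 lower members among 37 (median 0.60). Rgs16, which switches off G protein signals, was at 3.23 in the stimulated array and -2.03 in the unstimulated array (5.27). Spry1, an inhibitor of the Ras and ERK pathway, was at 3.66 in the stimulated array and -0.95 in the unstimulated array (4.61). Phosphatases of ERK and related kinases differed from each other, with Dusp14 (3.25), Dusp5 (2.87) and Dusp2 (1.59) higher and Dusp7 (-1.24) lower. The kinase Pim3 (3.33) and Spred1 (2.65) were higher, and Socs3 (-1.29), an inhibitor of cytokine signals, was lower beside a higher Socs1 (1.86). Zfp36l2, an RNA-binding protein that promotes mRNA decay, was at 4.44 in the stimulated array and 7.02 in the unstimulated array (-2.59), against 1.39 for its relative Zfp36l1.

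Brakes on growth and activation included the lowest value among genes with every probe above the floor in both arrays. Dtx1, a ubiquitin ligase of the Notch pathway tied to T cell anergy, was at -1.85 in the stimulated array and 3.79 in the unstimulated array and was 50.1-fold lower. Ddit4, which inhibits mTORC1, was at 2.88 in the stimulated array and 6.63 in the unstimulated array (-3.75), and Pik3ip1, which restrains PI3 kinase, was at -0.01 in the stimulated array and 2.45 in the unstimulated array (-2.46). The diacylglycerol kinase Dgka (-2.10) and Nedd4 (-2.15) were lower, and Trib1 (3.51), Fnip2 (2.46), Sesn2 (2.02) and Ndfip1 (1.92) were higher. Counts in this group were 6 higher and 9 lower of 31, so no common direction was seen. Of 23 Notch and Wnt genes 2 were higher, Rbpj (1.34) and Hes5 (1.21), and 5 lower, led by Wnt10a (at most -3.01), with a median of 0.03.

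Factors of the naive and quiescent state had 12 lower and 2 higher members among 33 (median -0.59). Dapl1, a marker of naive cells, was at -2.80 in the stimulated array and 1.41 in the unstimulated array (-4.21). Tsc22d3, the glucocorticoid-induced leucine zipper, was at 2.75 in the stimulated array and 5.86 in the unstimulated array (-3.11), and Txnip, which limits glucose uptake, was at 1.08 in the stimulated array and 4.06 in the unstimulated array (-2.97). The T cell factors Tcf7 (-1.86) and Lef1 (-1.57), the factor Foxo1 (-1.53) and its target Klf2 (-1.62) were all lower. Slfn2 (1.44), needed for T cell quiescence, and Bach2 (1.35) were the higher members.

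Of 44 genes of ribosome assembly in the nucleolus 39 were higher and 0 lower (median 1.87). Rrp9, a protein of the U3 processing complex, was at 5.01 in the stimulated array and 2.15 in the unstimulated array (2.85), and Bysl (2.78), Nop16 (2.76) and nucleolin, Ncl (2.30), were close in size. Ribosomal proteins themselves differed little. Of 39 such genes 0 were higher and 0 lower (median 0.04). Subunits and factors of RNA polymerases I and III had 10 higher and 1 lower members among 29 (median 0.56). Polr3g, a polymerase III subunit of proliferating cells, was higher (1.40) and its alternative Polr3gl was the lower gene (-2.41).

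Translation factors had 21 higher and 3 lower members among 43 (median 0.96). Eif5a, the factor that carries hypusine, was at 6.15 in the stimulated array and 3.66 in the unstimulated array (2.49), and the cap-binding Eif4e was at 2.32 in the stimulated array and 0.24 in the unstimulated array (2.07). Its inhibitors differed from each other, with Eif4ebp1 higher (1.79) and Eif4ebp2 lower (-2.15). The kinases Eif2ak3 (-1.43) and Eef2k (-1.07), which slow translation, were lower too.

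**Figure D4:**
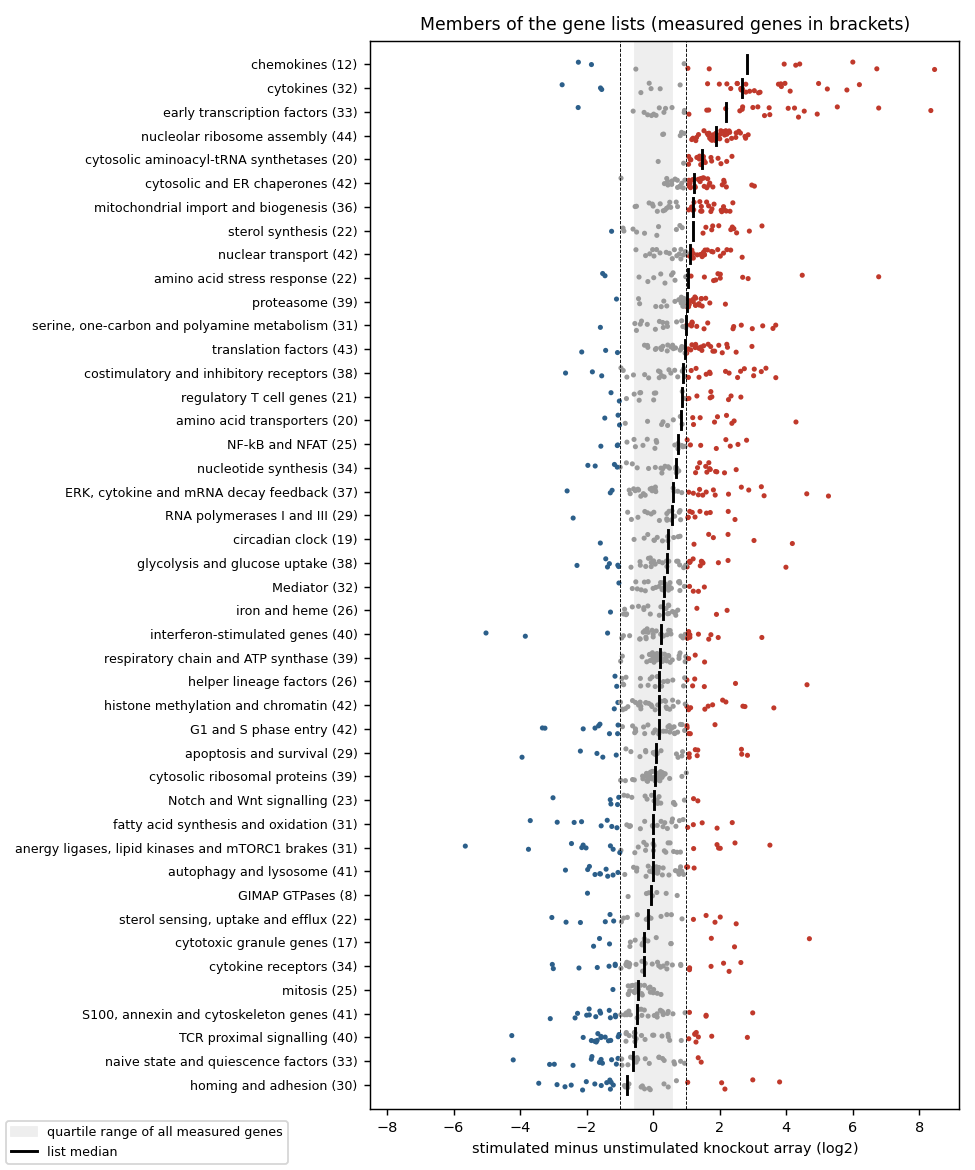
Stimulated minus unstimulated difference (log2) of every measured member of the gene lists other than cell type markers, with the number of measured members in brackets, the list median as a black bar, 2-fold as dashed lines and the range between the quartiles of all measured genes in grey. Ribosome assembly genes of the nucleolus lie mostly to the right of 2-fold (median 1.87), and ribosomal proteins lie between the dashed lines (median 0.04).

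Enzymes that load amino acids onto tRNA were higher almost throughout. Of 20 cytosolic aminoacyl-tRNA synthetases 18 were 2-fold higher and 0 lower (median 1.45). The isoleucine enzyme Iars was at 3.69 in the stimulated array and 1.49 in the unstimulated array (2.21) and the glycine enzyme Gars at 6.02 in the stimulated array and 4.54 in the unstimulated array (1.48). The alanine enzyme Aars (0.91) and the glutamine enzyme Qars (0.15) were the members not past the rule. These enzymes are known targets of the factor Atf4, whose own gene was at 4.48 in the stimulated array and 2.60 in the unstimulated array (1.88).

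The promoters of Aars, Gars and Iars are shown because they were the 3 of 13 synthetase windows (23.1%) with a match to the C/EBP-ATF motif TGATGNAAT, searched on both strands. Of the measured genes with a window 0.664% held it, and of the higher ones 0.586%. The match begins 113 bases before the start in Aars (chr8:111033592-111033891, plus strand), 31 bases before it in Gars (chr6:55037751-55038050, plus strand) and at base 7 after it in Iars (chr13:49681880-49682179, plus strand), all in GRCm38.p6. Capitals mark it, and also a match to the E-box CACGTG, the core sequence bound by Myc and Max, 146 bases before the start in Aars and 69 before it in Iars.
Aars: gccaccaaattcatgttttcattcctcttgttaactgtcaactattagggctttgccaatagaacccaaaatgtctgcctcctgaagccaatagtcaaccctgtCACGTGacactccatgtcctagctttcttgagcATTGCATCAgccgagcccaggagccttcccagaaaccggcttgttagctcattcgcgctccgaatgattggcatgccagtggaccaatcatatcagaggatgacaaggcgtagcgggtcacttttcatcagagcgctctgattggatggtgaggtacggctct
Gars: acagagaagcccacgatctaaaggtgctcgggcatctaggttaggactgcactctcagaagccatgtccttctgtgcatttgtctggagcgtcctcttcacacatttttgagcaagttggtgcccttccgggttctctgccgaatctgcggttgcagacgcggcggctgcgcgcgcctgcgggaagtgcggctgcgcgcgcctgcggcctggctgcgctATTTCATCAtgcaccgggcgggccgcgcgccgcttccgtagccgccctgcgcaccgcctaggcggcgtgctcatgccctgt
Iars: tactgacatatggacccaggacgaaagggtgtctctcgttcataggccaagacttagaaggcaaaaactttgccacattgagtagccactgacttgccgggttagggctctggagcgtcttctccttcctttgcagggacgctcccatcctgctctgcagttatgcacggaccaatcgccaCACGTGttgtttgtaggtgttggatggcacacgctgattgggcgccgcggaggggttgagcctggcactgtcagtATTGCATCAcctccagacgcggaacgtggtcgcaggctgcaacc

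The share of windows with the E-box differed among the growth lists. Over all genes it lay in 16.1% of higher genes with a window and 9.69% of lower ones, against 10.8% of measured genes. In the nucleolar list 11 of 39 windows held it (28.2%), and in the translation factor list 9 of 35 (25.7%). It lay in 3 of 23 windows of RNA polymerases I and III, 4 of 29 of ribosomal proteins and 2 of 25 of serine, one-carbon and polyamine genes. The autophagy and lysosome list, which was not higher, held it in 32.4% of its windows.

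Of 22 genes of the amino acid stress response 11 were higher and 2 lower (median 1.06). Chac1, which degrades glutathione, was at 1.70 in the stimulated array and -2.78 in the unstimulated array (4.48), and asparagine synthetase, Asns, was at 1.36 in the stimulated array and -1.32 in the unstimulated array (2.69). Ddit3, a factor of unresolved stress, differed by 0.02, and Nupr1 (at most -1.52) and Gadd45a (-1.45) were lower. Of 20 transporters 9 were higher and 3 lower (median 0.84), with the glycine carrier Slc6a9 at -0.28 in the stimulated array and -4.57 in the unstimulated array (4.29). The pair that forms the large neutral amino acid carrier, Slc7a5 (1.93) and Slc3a2 (2.36), and the glutamine carrier Slc1a5 (2.43) were higher.

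Serine, one-carbon and polyamine genes had 15 higher and 1 lower members among 31 (median 0.98). The serine hydroxymethyltransferases Shmt1 (3.68) and Shmt2 (2.65) were both higher. In the polyamine branch, the rate-limiting decarboxylase Odc1 was at 2.92 in the stimulated array and -0.06 in the unstimulated array (2.98) and spermidine synthase, Srm, at 5.30 in the stimulated array and 2.01 in the unstimulated array (3.29). The enzyme Dohh, which completes hypusine on Eif5a, was higher as well (1.64). The folate dehydrogenase Aldh1l1 was the lower member (-1.59).

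Of 34 nucleotide synthesis genes 12 were higher and 4 lower (median 0.68). Higher were Ctps (2.49), which makes cytidine triphosphate, Umps (2.14) and Uck2 (1.88) of the pyrimidine pathway, and Ppat (1.67), which commits to purine synthesis. Lower were enzymes that serve DNA synthesis, Rrm2 (-1.08) and Tk1 (-1.74), beside Ctps2 (-1.96), a relative of Ctps that catalyses the same step. With a floor at the 60th percentile of signal Ctps2 was under 2-fold (-0.65).

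Cell division genes were not higher at 6 h. Of 25 mitosis genes 0 were higher and 1, Cdc25b (-1.21), was lower, and Mki67 differed by -0.62 (list median -0.44). Genes of G1 and S phase had 5 higher (11.9%) and 9 lower (21.4%) members among 42, against 13.5% and 13.8% of all genes (median 0.17). Cyclin Ccnd2 was at 5.65 in the stimulated array and 3.79 in the unstimulated array (1.86), with its kinase Cdk4 (1.07) and Mcm2 of the replication helicase (1.12) just past 2-fold. The inhibitors Cdkn2d, at 0.90 in the stimulated array and 4.22 in the unstimulated array (-3.33), and Cdkn1b (-1.64) were lower, as was E2f2 (-3.25). Cdkn1a was not read alike by its probes, which gave 2.49 and -1.03.

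Sterol synthesis was followed through its steps. Of 22 genes 11 were higher and 1 lower (median 1.18). At entry, Hmgcs1 was at 4.10 in the stimulated array and 1.72 in the unstimulated array (2.38). The kinases of mevalonate, Mvk (-0.26) and Pmvk (0.80), and Mvd (0.16) were not past 2-fold, and the isomerase Idi1 was at 5.24 in the stimulated array and 2.35 in the unstimulated array (2.89). Squalene epoxidase Sqle (2.33) and the cyclase Lss (2.42) were higher. Cyp51, the lanosterol demethylase, was at 2.46 in the stimulated array and -0.81 in the unstimulated array and was 9.63-fold higher. Late enzymes differed from each other, with Msmo1 (1.97) and Sc5d (1.76) higher, Dhcr7 (-0.88) and Ebp (-0.50) not past the rule, and Tm7sf2 (-1.25) lower.

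Genes of sterol sensing and export differed from each other. The regulator Srebf2 was at 1.74 in the stimulated array and -0.11 in the unstimulated array (1.86), and its target Insig1 (2.01) was also higher. The exporters Abcg1, at 0.45 in the stimulated array and 3.49 in the unstimulated array (-3.05), and Abca1, at -2.45 in the stimulated array and 0.17 in the unstimulated array (-2.62), were lower. So were the ubiquitin ligase Mylip (-1.30), the sterol sensor Nr1h3 (-1.44) and the esterifying enzyme Soat2 (-2.19). With a floor at the 60th percentile Nr1h3 (-0.16) and Soat2 (-0.47) were under 2-fold. In all, 5 of 22 were higher and 6 lower (median -0.17).

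The Hmgcs1 promoter is shown because it held the 1 match to the sterol element TCACNCCAC, on either strand, among 17 sterol synthesis windows (5.88%), against 1.38% of measured genes and 20 of the 1537 higher genes with a window. The element was about as frequent in other lists, with 2 of 28 windows of costimulatory and inhibitory receptors (7.14%) and 2 of 36 of glycolysis genes (5.56%). The match, in capitals, begins 137 bases before the start (chr13:119690101-119690400, plus strand, GRCm38.p6).
Hmgcs1: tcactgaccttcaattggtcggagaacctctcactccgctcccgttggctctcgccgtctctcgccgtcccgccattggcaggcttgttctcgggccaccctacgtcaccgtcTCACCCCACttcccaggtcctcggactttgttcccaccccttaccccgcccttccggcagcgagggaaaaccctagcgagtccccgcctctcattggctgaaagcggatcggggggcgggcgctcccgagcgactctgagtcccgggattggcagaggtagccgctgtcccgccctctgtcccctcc

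**Figure D5:**
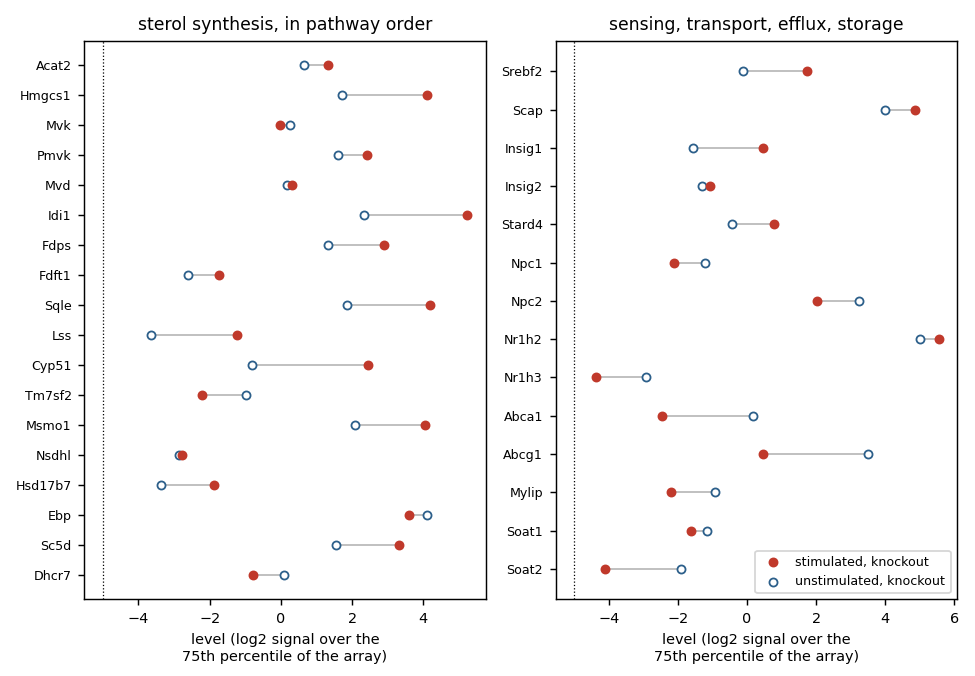
Levels in the stimulated (filled red) and unstimulated (open blue) knockout arrays, as log2 signal over the array's 75th percentile, of selected sterol synthesis enzymes in pathway order (left) and of selected genes of sterol sensing, transport, efflux and storage (right), with the floor as a dotted line. Cyp51, Idi1 and Srebf2 lie to the right in the stimulated array, and Abca1 and Abcg1 to the left.

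Fatty acid genes had no common direction, with 5 of 31 higher (16.1%) and 8 lower (25.8%), against 13.5% and 13.8% of all genes. Fatty acid synthase, Fasn, was at -0.34 in the stimulated array and -2.71 in the unstimulated array (2.37), and the carboxylase Acaca was just past 2-fold (1.04). Acss2, which makes acetyl coenzyme A from acetate, was at -2.98 in the stimulated array and 0.71 in the unstimulated array (-3.69), and its mitochondrial relative Acss1 was lower too (-2.38). Cpt1a, the gate of fatty acid oxidation, was lower (-2.15).

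Glycolysis and glucose uptake genes had 12 higher and 6 lower members among 38 (median 0.40). Hexokinase Hk2 was at 1.69 in the stimulated array and -2.30 in the unstimulated array and was 15.9-fold higher, and Hif1a, which drives glycolytic genes, was at 4.30 in the stimulated array and 2.05 in the unstimulated array (2.25). Ldha was higher (1.41) and its alternative Ldhb lower (-1.32). Pdk1, the kinase that shuts pyruvate out of mitochondria, was lower (-2.29), and the glucose carrier Slc2a1 was not past 2-fold (0.74).

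Of 36 mitochondrial import and biogenesis genes 21 were higher and 0 lower (median 1.20), led by the chaperone Hspa9, at 4.26 in the stimulated array and 1.86 in the unstimulated array (2.39), and the carrier chaperone Timm10 (2.31). Of 39 respiratory chain and ATP synthase genes 3 were higher, Cox10 (1.54), cytochrome c, Cycs (1.26), and Atp5g1 (1.07), and 0 were lower (median 0.21). Iron and heme genes were mostly under 2-fold, with 3 of 26 higher and 1, Fech (-1.28), lower (median 0.31). The transferrin receptor Tfrc, printed in 10 spots, differed by 2.70 on that probe (SD 0.0494 over the spots).

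Protein folding and turnover were read from chaperone and proteasome genes. Chaperones had 27 higher and 0 lower members among 42 (median 1.22). The inducible heat shock gene Hspa1a was at -0.60 in the stimulated array and -3.64 in the unstimulated array (3.04), Hsph1 was at 4.02 in the stimulated array and 1.05 in the unstimulated array (2.96), and the endoplasmic reticulum chaperone Hspa5 was higher by 1.70. Proteasome genes had 21 higher and 1 lower members among 39 (median 1.03), led by the activator Psme3 (2.17). Many lay close to 2-fold, and 12 were higher with quantile normalization or in the authors' values. The exception was Psmb10 (-1.10), a subunit of the immunoproteasome, whose other catalytic subunits Psmb8 (-0.44) and Psmb9 (-0.41) were not past the rule.

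Nuclear transport genes had 23 higher and 0 lower members among 42 (median 1.10). Ipo4 (2.67), an importin, and Rcc1 (2.33), the exchange factor of Ran, led them, and Ran was at 5.22 in the stimulated array and 3.28 in the unstimulated array (1.94). The exportin Xpo1 differed by -0.23. Autophagy and lysosome genes had 10 lower and 3 higher members among 41. Tfeb, the master factor of lysosome genes, was at -3.51 in the stimulated array and -0.87 in the unstimulated array (-2.64), and the protease Ctsd (-1.97) was lower, while the cargo receptor Sqstm1 was just past 2-fold (1.03).

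Of 40 interferon-stimulated genes 10 were higher and 3 lower (median 0.25). Quantile normalization left 5 higher. Gbp2, a guanylate-binding protein induced by interferon gamma, was at 6.74 in the stimulated array and 3.48 in the unstimulated array (3.26), and Gbp5 (1.67) and Iigp1 (1.73) were higher beside it. The cytosolic RNA sensors differed from each other, with Ifih1 higher (1.95) and Ddx58 lower (-1.37). The type I marker Ifit1 was not past 2-fold (-0.39). Apol9b, at -1.21 in the stimulated array and 3.81 in the unstimulated array (-5.02), and Apol9a (-3.84) were lower. These are close relatives, and their probes may not tell them apart.

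Of 17 cytotoxic granule genes 3 were higher and 3 lower (17.6% each way, close to the 13.5% and 13.8% of all genes, with a median of -0.27). Gzmb was at 1.80 in the stimulated array and -2.89 in the unstimulated array (4.69), the proteoglycan Srgn that packs granules was higher (2.44), and perforin, Prf1, was lower (-1.31). Of 41 S100, annexin and cytoskeleton genes 13 were lower and 4 higher (median -0.48). S100a4, a marker of memory and motile cells, was at 1.36 in the stimulated array and 4.45 in the unstimulated array (-3.09), and the actin crosslinker Flna was at 5.36 in the stimulated array and 7.71 in the unstimulated array (-2.35). All the higher members were tubulins: Tubb6 (2.99), Tubb4b (1.59), Tubb2a (1.59) and Tuba1b (1.09).

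Survival genes had 8 higher and 5 lower members among 29 (median 0.09). The protective Bcl2l1 was at 2.03 in the stimulated array and -0.63 in the unstimulated array (2.66) and Bcl2a1d at 6.70 in the stimulated array and 4.05 in the unstimulated array (2.65). Death-promoting members differed from each other, with Bcl2l11 higher (2.83, but 0.73 with a floor at the 60th percentile), and Bmf, at -2.89 in the stimulated array and 1.05 in the unstimulated array (-3.94), and Bbc3 (-2.19) lower. Bcl2 itself differed by -0.22. Of 8 lymphocyte GTPases of the GIMAP family, 1, Gimap7 (-1.97), was lower and 0 were higher (median -0.08).

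Regulatory T cell genes had 9 higher and 2 lower members among 21 (median 0.87). Lrrc32, which anchors latent TGF beta, was at 2.35 in the stimulated array and 0.62 in the unstimulated array (1.73). Several members, such as Il2ra and Tnfrsf4 (1.71), are known activation genes of all CD4 cells. Clock genes had 6 higher and 1 lower members among 19 (median 0.44). Bhlhe40, a repressor that also permits cytokine production in T cells, was at 4.14 in the stimulated array and -0.04 in the unstimulated array (4.18), Per2 (2.25) and Per1 (1.81) were higher and Dbp was lower (-1.59). Among chromatin genes 11 of 42 were higher and 2 lower (median 0.19), led by the demethylase Kdm6b, at 4.26 in the stimulated array and 0.63 in the unstimulated array (3.62). The acetyltransferase Ep300 (-1.17) and the methyltransferase Ehmt2 (-1.06) were lower.

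Several of the largest differences belonged to genes outside these groups. Bdh2, a short-chain dehydrogenase, was at 2.66 in the stimulated array and -4.54 in the unstimulated array and was 146-fold higher. Crabp2, a carrier of retinoic acid to the nucleus, was at 3.82 in the stimulated array and -2.92 in the unstimulated array (6.74), and Sult2b1, which sulfates sterols, was at 3.49 in the stimulated array and -3.16 in the unstimulated array (6.65). Sema7a, a membrane-bound semaphorin of activated T cells, was at 3.75 in the stimulated array and -1.96 in the unstimulated array (5.71). Among genes at the floor without stimulation were Spin4 (at least 5.77), the calcium sensor Ncs1 (at least 4.88) and Plk5 (at least 4.68). The probe of Ncs1 was printed in 10 spots, whose differences ran from 1.37 to 5.11 (SD 1.12), so its bound is uncertain.

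On the lower side Igfbp4, a binding protein of insulin-like growth factors, was at -3.13 in the stimulated array and 1.80 in the unstimulated array (-4.92). Eya2, a transcriptional coactivator with phosphatase activity, was at -2.84 in the stimulated array and 1.79 in the unstimulated array (-4.62). Rasgrp2, the exchange factor of Rap1 in integrin activation, was at -1.24 in the stimulated array and 2.83 in the unstimulated array (-4.07). Lrrc75b (-5.06), Drc1 (-5.01), Cmtm8 (-4.99), Dmbt1 (-4.98) and Raver2 (-4.37) were lower by similar amounts. Among genes at the floor with stimulation were Pygl (at most -4.27), which breaks down glycogen, and Ampd1 (at most -4.49), the muscle AMP deaminase. In the probes printed in 10 spots, Itpr3 differed by -2.65 (SD 0.0688 over the spots) and Hsd11b1 by -2.81 (SD 0.0524), so these lower values were larger than the noise between spots.

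Beside the wildtype pair, which shares no array with the knockout pair, the leading genes differed in size in both directions. The stimulated wildtype array also held the neutrophil and red cell RNA described above, whose part in these values was not tested. Ccl4 differed by 8.45 in the knockout pair and 6.32 in the wildtype pair, Ifng by 5.23 and 2.47, and Atf3 by 6.78 and at least 6.20. For Nr4a2 the values were 8.34 in the knockout pair and 7.43 in the wildtype pair. Larger in the wildtype pair were Spry1, with 4.61 in the knockout pair and 5.92 in the wildtype pair, and Bcl6, with 1.25 in the knockout pair and 2.52 in the wildtype pair. Ddit4 was lower by more in wildtype cells, with -3.75 in the knockout pair and -4.84 in the wildtype pair, and Irf4 was close, with 4.25 in the knockout pair and 4.47 in the wildtype pair. Cyp51 differed by 3.27 in the knockout pair and 1.07 in the wildtype pair, and sterol synthesis had 11 higher and 1 lower of 22 in the knockout pair, against 8 and 3 of 22 in the wildtype pair. Synthetases were higher in 18 of 20 in the knockout pair and 10 of 20 in the wildtype pair. Their median difference was 1.45 in the knockout pair and 1.02 in the wildtype pair. The wildtype median lay close to 2-fold, where small shifts change the count. Nucleolar genes were higher in 39 of 44 in either pair, and cytokines in 24 of 32 in the knockout pair and 26 of 33 in the wildtype pair. With 1 array a group none of these differences between genotypes was tested.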

How the data were processed

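RNA of 4 samples was measured on single-colour Agilent arrays, 1 array a group. The deposited raw table gives spot intensity on a linear scale, made with Agilent Feature Extraction 10.7.3.1 and not normalized between arrays, per the submitters' processing notes and the table's header. A second deposited table gives log2 values normalized by the authors in GeneSpring GX 11.5.1, as its header states. It was used as an alternative: against own quantile-normalized log2 signals its values had an SD of 0.0237 (lowest correlation over the arrays 0.99995), which settled its scale and direction, and its medians were 8.54 and 8.53 for the stimulated and unstimulated knockout arrays and 8.51 and 8.54 for the wildtype ones.

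Spots of a probe were averaged as log2 intensity, each array was scaled to its 75th percentile over non-control probes, and values were set to a floor, the median over arrays of their 40th percentiles. Of 39429 probes, 26299 were named by matching accessions to a RefSeq table of GRCm38.p6, giving 19896 genes, whose probes were averaged. The remaining 13130 probes were left out. A gene was measured when above the floor in at least 1 of the arrays compared (14229 genes). No label names the genome build of the array annotation. Python 3.11.15 with numpy 2.4.6, pandas 2.3.3 and matplotlib 3.10.9 was used, and the calculation was tested on simulated data.

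The comparison and its 53 gene lists (1520 genes, 1424 measured) were chosen with earlier results of these data known. Named were each list's anchor genes, up to 6 of its highest and 4 of its lowest called members, all members of short lists, the 15 largest differences each way, the 8 largest bounds, and the 8 largest each way among probes of 10 spots. Genes added to complete a pathway or family were chosen after their values were seen. The alternatives were scaling to the median, quantile normalization, the authors' values, floors at the 20th and 60th percentiles, a pseudocount in place of a floor, the brightest probe per gene, and genes above the floor in both arrays. Precision is limited by the number of arrays. Some list members are counted but not reported by name here.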

Additional observations from a re-analysis of the deposited data

Results flagged for a closer look

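Differences of 2-fold or more in opposite directions in the knockout and the wildtype pair were found for 63 of 10738 genes above the floor in all arrays. Of these, 7 were higher and 56 lower with stimulation in the knockout pair. Whether these differences exceed the spread between samples was not tested. They stand beside neutrophil and red cell RNA in the stimulated wildtype array. Of the measured neutrophil markers 1 of 9 was higher in the knockout pair and 16 of 16 in the wildtype pair (median 7.12), and of the red cell markers 0 of 6 in the knockout pair and 9 of 10 in the wildtype pair (median 3.94). Their part in the split was not tested. The 6 with the largest gap are given here. Hba-a2, an alpha globin, differed by -1.72 in the knockout pair and 10.28 in the wildtype pair. Plbd1, a phospholipase of neutrophils and monocytes, differed by -4.09 in the knockout pair and 6.19 in the wildtype pair. Alox5ap, needed for leukotriene synthesis, gave -1.15 in the knockout pair and 5.78 in the wildtype pair. Tyrobp, a signalling adaptor of myeloid and natural killer cells, gave -2.16 in the knockout pair and 4.68 in the wildtype pair, and Tgfbi gave -2.36 and 4.38. Hba-a2 had levels of -3.98 and -2.26 in the stimulated and unstimulated knockout arrays, against 6.89 and -3.39 in the stimulated and unstimulated wildtype arrays.

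Sbk1, a kinase known from brain, went the other way, with 5.40 in the knockout pair and -1.53 in the wildtype pair. Its levels were 6.67 and 1.27 in the stimulated and unstimulated knockout arrays, against 0.18 and 1.70 in the stimulated and unstimulated wildtype arrays, so 1 array stands apart. With a floor at the 60th percentile Hba-a2 (-0.12), Alox5ap (-0.95) and Tgfbi (-0.02) were under 2-fold in the knockout pair.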

How the results depend on the processing

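No paired analysis was possible because each group had 1 array, and leaving out a replicate was not possible for the same reason. Of 409 named genes past 2-fold, 349 stayed past it under every one of the 8 alternatives that gave them a value, and none turned direction under any. Named genes that were under 2-fold with the floor at the 60th percentile included Ccr2 (-0.81), Wnt10a (-0.38), Gimap7 (-0.40), Sesn2 (0.73), Bach2 (0.46), Acaca (0.70), Itgb1 (0.53), Eef2k (-0.21) and Tm7sf2 (-0.82). Quantile normalization did the same for Atp5g1, Cdk4, Foxp3, Malt1, Mcm2, Med21, Sqstm1 and Tuba1b, the pseudocount for Ascl2, Ctsg, Med13 and Mpo, scaling to the median for Cdk19 and the brightest probe for Ddx58. Il7r passed 2-fold with quantile normalization (-1.22). Among the counts per list, those of lower genes in the G1 and S phase list (9) and in the Notch and Wnt list (5) came to 5 and 2 with the higher floor. Lower stromal and endothelial markers (6) came to 1 and lower myeloid and dendritic cell markers (6) to 3 there. Higher G1 and S phase genes (5) came to 2 with quantile normalization. Scaling moved the balance of calls. Genes higher with stimulation made up 49.4% of those past 2-fold. Scaling to the median gave 52.2%, quantile normalization 45.6%, the authors' values 46.6% and a floor at the 60th percentile 53.1%. Under that higher floor 1259 genes were lower, in place of 1963. Fewer genes were measured there, 10409 in place of 14229. Genes that stayed measured also changed: of 379 named called genes with a value there, 28 were under 2-fold. The share of each in the lower count was not tested. Dim genes are the least certain, since noise between spots is largest near the floor, and the spread between animals or cultures is not known.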

Other observations

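Noncoding transcripts were called about as often as other genes. Of 116 measured long noncoding RNAs 21 (18.1%) were 2-fold higher and 17 (14.7%) lower, against 13.5% and 13.8% of 14049 protein-coding genes. The following examples were chosen after their values were seen. Mir17hg, the host transcript of a microRNA cluster that Myc is known to induce, had a level of 4.81 in the stimulated array and 1.15 in the unstimulated array (3.66); the probe reads the host and not the microRNAs. Dancr, a host of small nucleolar RNAs, was at 4.15 in the stimulated array and 1.80 in the unstimulated array (2.35), and Map2k3os, antisense to the kinase gene Map2k3, was at 1.37 in the stimulated array and -2.92 in the unstimulated array (4.29).

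For 19 genes, probes differed 2-fold in opposite directions, among them Adamts14 (1.71 and -4.19) and the cell cycle inhibitor Cdkn1a (2.49 and -1.03). The probe of Cdkn1a that was higher was printed in 10 spots, over which its difference had an SD of 0.135.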
